A study of Mus musculus with 2 samples.

Results

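The heat shock proteins of the cytosol and mitochondria were examined in cultured mouse fibro-adipogenic progenitors (FAPs), stromal cells that lie between muscle fibres and can become adipocytes or fibroblasts. They are 10 genes of the 44291 in the files, taken by their symbols: Hspa1a, Hspa1b, Hspa8, Hsph1, Dnajb1, Hspb1, Hsp90aa1, Hsp90ab1, Hspd1 and Hspe1. No cutoff on a value was used, but the genes were chosen with earlier results of these data known. All 10 had a row in both libraries and all 10 passed the filter used here, a mean FPKM of at least 1. FPKM is the read number of a gene divided by its exon length and by the assigned reads of its library. The RNA came from primary FAPs of WT mice, which the study's methods describe as sorted from hind limb muscle of C57BL/6 animals. The cells received PRP (platelet-rich plasma) or vehicle as control and were then kept in adipogenic induction medium. It contained IBMX (0.5 mM), dexamethasone (0.25 µM), insulin (10 µg/ml) and FBS (20%) in both groups. There was 1 library per group, so no difference could be set against the spread between replicates, and no p-values are given. The labels name the treatment PRP, whereas the study's text describes exosomes from the PRP of young donors. Its methods describe PRP made from human blood, so a human product was given to mouse cells.

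Heat shock proteins are chaperones, which bind proteins that are not yet folded or have lost their fold. In the cytosol, J-domain proteins hand such clients to HSP70, HSP110 helps HSP70 to release its nucleotide, and HSP90 takes over later steps, for example for steroid receptors and kinases. Small heat shock proteins hold unfolded proteins without using ATP, and in mitochondria the chaperonin HSP60 with its lid HSP10 encloses imported proteins while they fold. Some of these genes are used by nearly all cells at all times, and others are switched on by heat and other stress through the transcription factor HSF1, which binds repeats of the unit GAA and its reverse complement TTC.

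Assigned reads, as recovered from the FPKM values, numbered 40120843 with PRP and 34139741 in the control. The ratio of each gene is given with an exact Clopper-Pearson 95% interval computed from its fragments, which covers counting error only and compares these 2 libraries. Of 12 FAP markers listed, 9 passed the filter, and 8 of these had a lower value in the PRP library, whereas 50.9% of all genes that passed were higher. Of the 8, 4 were past 1.5-fold, and Dpt, at 18.8 FPKM with PRP and 50.2 in the control, was past 2-fold. Col1a1 was at 119 and 219 FPKM. Mfap5, the 1 with a higher value, was at 12.3 and 11.3 FPKM. Pdgfra, the defining surface receptor of FAPs, was at 19.8 FPKM with PRP and 28.0 in the control, and Ly6a, which encodes Sca-1, was at 59.9 and 66.4. Of the markers of adipocytes, the cells that the medium induces, 7 of 10 passed, with 5 higher and 2 lower. Pparg was at 8.69 FPKM with PRP and 6.55 in the control, Fabp4 at 40.7 and 33.6, and Lpl at 67.4 and 83.3. Of the markers of cell types outside the culture's lineage, the filter was passed by 0 of 10 for platelets and erythroid cells, 2 of 10 for macrophages, 2 of 10 for endothelial cells and 4 of 9 with a row for muscle cells. Of the defining ones, Ppbp, Gp9, Pax7 and Myog were listed at 0 in both. Other platelet genes lay above 0 but below the filter. Itga2b was at 0.567 FPKM with PRP and 0.365 in the control (ratio 1.55, 95% interval 1.005 to 2.43). Gp1ba was at 0.917 and 1.03 FPKM (0.886, 0.584 to 1.35). The platelet and erythroid entries are mouse genes, and RNA carried over from human PRP was not examined. The 2 macrophage markers that passed differed in direction, with Cd68 at 4.56 FPKM with PRP against 2.31 and Lyz2 at 4.91 against 7.57. The 2 endothelial markers were higher with PRP, Kdr at 4.23 FPKM against 1.499 and Tek at 4.73 against 3.56. Of the muscle genes, Tnnc1 was at 21.2 FPKM with PRP against 8.75 and Acta1 at 15.1 against 11.1, whereas Ckm at 3.56 against 3.72 and Des at 2.91 against 3.39 had intervals of the ratio that include 1. Their part in the results below was not tested. In bulk RNA, fewer cells of a type and less RNA per cell cannot be told apart.

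The heat shock protein genes differed little between the libraries, and Hsp90ab1, Hsp90aa1 and Hspa8 were among the 50 most abundant genes in both. Their FPKM summed to 4249 with PRP and 3878 in the control, or 1.24% and 1.14% of all FPKM. Hspd1 and Hspe1, the mitochondrial chaperonin and its lid, were 1.47 and 1.31 times as high in the PRP library, and Hspa8, the constitutive HSP70, was at the same level to within 2% in either direction of the interval. Hsph1 and Hspb1 were the 2 genes with a lower value in the PRP library. The levels spanned from 8.34 FPKM for Hspa1a in the control to 2131 FPKM for Hsp90ab1 with PRP.

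**Figure D1:**
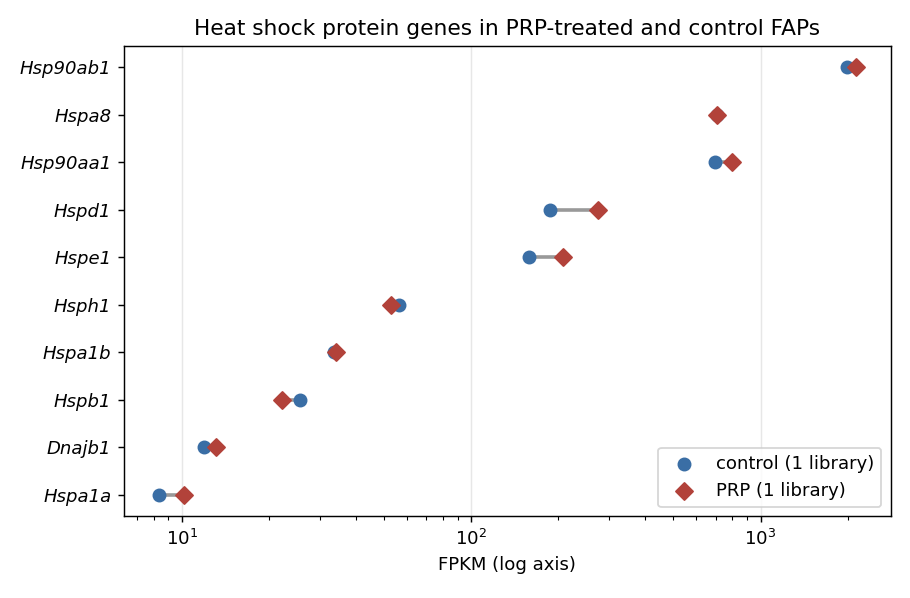
FPKM of the 10 heat shock protein genes on a log axis, with a circle for the control library and a diamond for the PRP library. The symbols of each gene lie close together, and the levels run from Hspa1a, the 5023rd most abundant gene in the control, to Hsp90ab1, the 9th with PRP.

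Of the 10 genes, 8 were higher and 2 were lower with PRP, and 50.9% of all tested genes were higher. None reached a 2-fold change of FPKM + 1, against 2.83% of the 13401 tested genes, and none reached 1.5-fold, against 10.7%. The counting interval lay above 1 for 5 of the 10 genes and below 1 for 2, and it included 1 for the other 3. Among all genes with an interval these shares were 26.1% above and 26.1% below. The shares are not like for like, because an interval narrows as reads increase. The 10 genes had from 845 to 256380 reads in a library, whereas the filter admits genes from a mean of 1 FPKM. Hsp90ab1, for example, counted as above 1 at a ratio of 1.07. The shares over all genes, with the same limit, also stand beside the counts of the lists below. The median difference of the 10 genes on the log2(FPKM + 1) scale was 0.11, and the median of all tested genes was 0.01. On that scale 95% of all tested genes lay between -0.74 and 0.89, and all 10 heat shock genes lay within these limits. The 8 higher genes fell to 6 when the libraries were scaled without the mitochondrially encoded and the 50 most abundant genes, since Hspa8 (-0.03) and Hspa1b (-0.01) then lay just below 0.

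**Figure D2:**
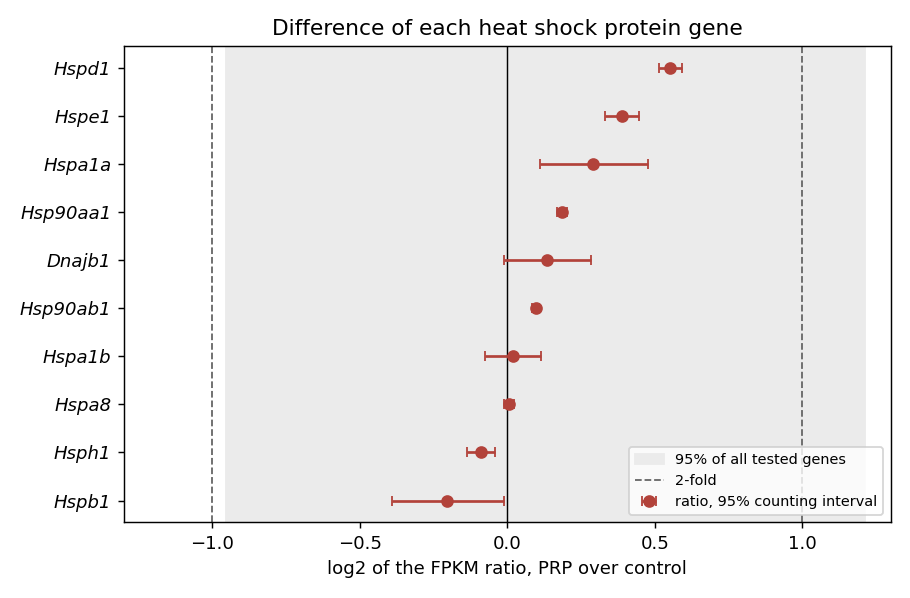
Difference of each gene as log2 of the FPKM ratio, PRP over control, with its 95% counting interval. The grey band holds 95% of all tested genes, from -0.95 to 1.21, and the dashed lines mark 2-fold; all 10 genes lie within the band, Hspd1 is farthest from 0 and Hspa8 sits on 0.

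The largest difference was found in the mitochondrial chaperonin. Hspd1 (ENSMUSG00000025980, GRCm38 chr1:55077835-55088243, minus strand), which encodes the ring-forming subunit HSP60, was at 275 FPKM with PRP and 187 FPKM in the control, from 29125 and 16886 reads. Hspe1 (ENSMUSG00000073676, chr1:55088132-55091307, plus strand), which encodes the lid HSP10, was at 207 FPKM and 158 FPKM, from 12264 and 7970 reads. Both genes were higher in the PRP library, and Hspd1 more so than Hspe1. The ratio was 1.47 for Hspd1 (95% counting interval 1.43 to 1.51) and 1.31 for Hspe1 (1.26 to 1.36), and these intervals do not overlap. On the log2(FPKM + 1) scale the differences were 0.55 and 0.39. Among all tested genes, 6.85% had a larger value than Hspd1 and 12.6% a larger value than Hspe1. The level of Hspd1 was 1.32 times that of Hspe1 with PRP and 1.18 times in the control. In abundance Hspd1 was the 174th gene with PRP and the 270th in the control, and Hspe1 the 237th and the 318th.

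Hspd1 and Hspe1 are neighbours read in opposite directions, and their 5′ ends overlap. In the RefSeq promoter windows (GRCm38.p6, 250 bases before to 50 bases after a gene start), a run of 4 heat shock units was found that lies before the Hspe1 start and before 1 of the 2 Hspd1 starts. It is shown on the strand of each gene, 5′ to 3′, with the GAA and TTC units in capitals, because it is the longest run found in the windows of the 10 genes and belongs to the pair with the largest difference.
Hspd1 (minus strand, chr1:55088053-55088082): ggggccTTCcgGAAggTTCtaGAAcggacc
Hspe1 (plus strand, chr1:55088053-55088082): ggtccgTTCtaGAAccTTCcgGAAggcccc
These sequences are the reverse complement of each other, so this is 1 site and not 2. The units lay from position -144 to -127 relative to the Hspd1 start at 55087932 and from -89 to -72 relative to the Hspe1 start at 55088148. The other Hspd1 start, at 55088243, is the M21 end of the gene given above. From it the site lies downstream, all 30 bases shown fall within M21 exons of Hspd1, and the window of that start held no pair and no run. A run of at least 3 units, GAA and TTC in alternation with 2 bases between neighbours, looked for on both strands, is held by 0.603% of the 32851 RefSeq windows. The exons of Hspd1 and Hspe1 also overlap on opposite strands, over 4.24% of the exon length of Hspd1 and 7.60% of that of Hspe1. An Hspd1 pseudogene listed apart, Hspd1-ps3, had 5.64 FPKM with PRP and 3.44 FPKM in the control. With its reads added, the ratio of Hspd1 remained 1.47.

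A list of 15 other chaperones and proteases of mitochondria was examined beside this pair. Of these, 13 were higher with PRP and 2 were lower, with a median of 0.20 on the log2(FPKM + 1) scale against 0.01 for all genes. Among all tested genes 50.9% were higher. The counting interval lay above 1 for 8 of the 15 and below 1 for 1, against 26.1% and 26.1% over all genes. None reached 2-fold, and 1 reached 1.5-fold. That gene was Grpel2, a nucleotide exchange factor of mitochondrial HSP70, at 5.88 FPKM with PRP and 3.57 FPKM in the control (ratio 1.65, 1.46 to 1.86). Clpp, the protease subunit of the ClpXP complex, was at 11.8 and 8.21 FPKM (1.43, 1.18 to 1.73). Its partner Clpx, the unfolding subunit of the same complex, went the other way with 9.76 and 11.04 FPKM (0.884, 0.794 to 0.986). Trap1, the mitochondrial HSP90, was at 24.9 and 26.4 FPKM (0.943, 0.870 to 1.02), an interval that includes 1. Hspa9, the HSP70 of mitochondria and on the same list, was at 394 and 327 FPKM (1.20, 1.18 to 1.22), so the level of Hspa9 was 1.43 times that of Hspd1 with PRP and 1.75 times in the control. Messages from the mitochondrial genome itself moved the other way, with a summed level of 7060 FPKM with PRP and 12565 FPKM in the control, which is 2.06% and 3.70% of all FPKM. Whether this has a part in the difference of the nuclear genes was not tested.

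The cytosolic HSP90 genes were, with Hspa8, the most abundant of the 10. Hsp90ab1 (ENSMUSG00000023944, chr17:45567775-45573271, minus strand), the constitutive HSP90β, was at 2131 FPKM with PRP and 1992 FPKM in the control, from 256380 and 203924 reads. Hsp90aa1 (ENSMUSG00000021270, chr12:110690605-110702728, minus strand), the stress-inducible HSP90α, was at 794 FPKM and 698 FPKM, from 125180 and 93655 reads. Both were slightly higher in the PRP library. The ratio was 1.07 for Hsp90ab1 (1.06 to 1.08) and 1.14 for Hsp90aa1 (1.12 to 1.15), or 0.10 and 0.19 on the log2(FPKM + 1) scale. Depth makes such small differences distinguishable from counting error, but not from the spread between cultures, which 1 library per group does not show. Hsp90ab1 had 2.68 times the level of Hsp90aa1 with PRP and 2.85 times in the control. Their coding sequences are 76.7% identical over 2170 aligned bases.

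HSP90 works with co-chaperones, and these showed no common direction. Of the 17 listed and tested, 9 were higher and 8 lower with PRP, and the median was 0.03 on the log2(FPKM + 1) scale. Of the 16 with a counting interval, 6 lay above 1 and 6 below 1. When the libraries were scaled without mitochondrially encoded and top genes, 8 were higher and 9 lower. Cacybp, a partner of the ubiquitin ligase SIAH1, was at 77.9 FPKM with PRP and 61.2 FPKM in the control (ratio 1.27, 1.21 to 1.34). Tomm34, which links HSP70 and HSP90 to import into mitochondria, was at 12.0 and 9.39 FPKM (1.28, 1.14 to 1.44). Fkbp5, an immunophilin of steroid receptor complexes that glucocorticoids induce, was at 7.62 and 12.4 FPKM (0.614, 0.574 to 0.658), and it was the only co-chaperone past 1.5-fold. Fkbp8, an immunophilin of the outer mitochondrial membrane, was at 27.9 and 41.5 FPKM (0.674, 0.640 to 0.711). Dexamethasone, a glucocorticoid, was in the medium of both groups.

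The HSP70 genes split into a very abundant constitutive gene and a pair of low inducible ones. Hspa8 (ENSMUSG00000015656, chr9:40800984-40810087, plus strand), the constitutive HSC70, was at 709.6 FPKM with PRP and 707 FPKM in the control, from 122446 and 103804 reads. Its ratio was 1.004 with an interval from 0.992 to 1.02, so these libraries differed by less than 2% in Hspa8. Hspa1b (ENSMUSG00000090877, chr17:34956436-34959238, minus strand), an inducible HSP70, was at 34.2 and 33.7 FPKM, from 3846 and 3227 reads. Its ratio was 1.01 (0.948 to 1.08), which includes 1. Hspa1a (ENSMUSG00000091971, chr17:34969190-34972156, minus strand), the neighbouring inducible copy, was at 10.2 and 8.34 FPKM, from 1216 and 845 reads. Hspa1a was higher in the PRP library by a ratio of 1.22 (1.08 to 1.39), or 0.26 on the log2(FPKM + 1) scale, and 20.4% of all tested genes had a larger value. Hspa8 had 20.7 times the level of Hspa1b with PRP and 20.96 times in the control.

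The interval of Hspa1a depends on how the reads of near-identical copies are treated. The coding sequences of Hspa1a and Hspa1b differ at 8 of 1923 aligned bases (99.6% identity), and their promoter windows differ at 4 of 300 bases. Hspa1b had 3.35 times the level of Hspa1a with PRP and 4.04 times in the control. With the reads of both genes added, 5062 with PRP and 4072 in the control, the ratio was 1.06 with an interval from 0.997 to 1.12, which includes 1. Hspa1a further shares 19.0% of its exon length with Gm20481, an entry on the opposite strand with 424 and 285 reads. With these reads taken off, the ratio of Hspa1a was 1.20 (1.03 to 1.41).

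Hspa1a and Hspa1b carry the same heat shock pair at the same distance before their starts. The 30 bases around it are shown to let the near-identity of the copies be seen outside the coding sequence.
Hspa1a (minus strand, chr17:34972242-34972271): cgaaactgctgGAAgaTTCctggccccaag
Hspa1b (minus strand, chr17:34959324-34959353): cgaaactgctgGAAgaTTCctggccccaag
Capitals mark the units, which lay from position -104 to -97 relative to the start in both windows.

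The partners of HSP70 among the 10 genes differed little. Hsph1 (ENSMUSG00000029657, chr5:149614287-149636376, minus strand), the HSP110 that exchanges the nucleotide of HSP70, was at 52.8 FPKM with PRP and 56.2 FPKM in the control, from 15405 and 13939 reads. It was lower in the PRP library, with a ratio of 0.940 (0.910 to 0.971). Dnajb1 (ENSMUSG00000005483, chr8:83608193-83612653, plus strand), the J-domain protein HSP40, was at 13.2 and 12.0 FPKM, from 1691 and 1310 reads. Its ratio was 1.10 (0.991 to 1.22), an interval that includes 1. If reads in place of fragments are taken as the counting unit, the interval of Dnajb1 is 1.02 to 1.18. Hspa8 had 53.9 times the level of Dnajb1 with PRP and 59.0 times in the control.

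Among the other proteins of the HSP70 system, the listed J-domain proteins outside the endoplasmic reticulum had more higher than lower values. The list holds 17 chosen genes and not the whole family, and 4 of them, Dnaja3 of mitochondria among these, stand in other lists too. Of 16 tested, 11 were higher and 5 lower with PRP, with a median of 0.09 on the log2(FPKM + 1) scale. Of all tested genes 50.9% were higher. Of the 15 with an interval, 8 lay above 1, 2 below 1 and 5 included 1. Dnajc2, a chaperone that sits on the ribosome, was at 49.2 FPKM with PRP and 34.0 FPKM in the control (ratio 1.45, 1.38 to 1.52), and Dnajc17 was at 31.4 and 25.1 FPKM (1.25, 1.12 to 1.39). At the other end, Dnajc9, a histone chaperone, was at 22.3 and 28.3 FPKM (0.787, 0.723 to 0.856), and Dnajc13, an endosomal protein, was at 17.9 and 21.2 FPKM (0.844, 0.809 to 0.881). None of the 16 reached 1.5-fold.

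Of the remaining HSP70 and HSP110 genes, 7 were tested, with 2 values higher and 5 lower and a median of -0.09. Of the 6 with an interval, 1 lay above 1, 2 below 1 and 3 included 1. Besides Hspa9, Hspa4l had the higher value with PRP, 7.42 FPKM against 6.14, without an interval. Hspa4, an HSP110 like Hsph1, was at 149.9 FPKM and 198 FPKM, a ratio of 0.757 (0.741 to 0.773). Hspa12a, a distant HSP70, was at 1.49 and 2.13 FPKM (0.702, 0.597 to 0.827). Of 8 tested exchange factors and partners of HSP70, 3 were higher and 5 lower, with a median of -0.03, and the interval lay above 1 for 1, below 1 for 2 and included 1 for 5. Bag1, a nucleotide exchange factor of HSP70, was at 339 and 314 FPKM (1.08, 1.05 to 1.11) and Bag2 at 11.4 and 10.7 FPKM (1.06, 0.9504 to 1.19). Stub1, the ubiquitin ligase CHIP that tags clients of HSP70 for degradation, was at 42.0 and 62.1 FPKM (0.675, 0.638 to 0.715), and Bag6, a chaperone of membrane proteins on their way to the ER, was at 9.97 and 15.0 FPKM (0.663, 0.615 to 0.715).

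Hspb1 (ENSMUSG00000004951, chr5:135887919-135889563, plus strand), the small heat shock protein HSP25, was at 22.2 FPKM with PRP and 25.6 FPKM in the control, from 919 and 900 reads. It was lower in the PRP library, with a ratio of 0.869 (0.762 to 0.993) that leaves little room to 1, and 75.5% of all tested genes had a larger value. The row of its processed pseudogene Hsp25-ps1 (ENSMUSG00000078915, chr13:45078498-45079127, minus strand) held more reads than Hspb1 itself, 1252 with PRP and 1116 in the control, or 49.5 and 51.9 FPKM. Gm9817, an entry that overlaps Hsp25-ps1 on the opposite strand, had 1253 and 1116 reads. So the same number of reads stood at both entries, to within 1 read, although the library kit marks strand; whether the counting used strand is not given in the sources used here. With the reads of Hsp25-ps1 added to those of Hspb1, the ratio was 0.916, with an interval from 0.841 to 0.9998. Of 6 other tested genes listed as small heat shock proteins by their symbols, 2 were higher and 4 lower, with a median of -0.21 on the log2(FPKM + 1) scale. The interval lay above 1 for 1, below 1 for 3 and included 1 for 2. The 4 lower genes include Hspb11, at 1.84 and 2.28 FPKM (ratio 0.809, 0.583 to 1.12), which was listed by its symbol only. Hspb8 was at 50.4 and 35.5 FPKM (ratio 1.42, 1.32 to 1.53) and Hspb6 at 2.67 and 2.19 FPKM (1.22, 0.916 to 1.62). Hspb2 was at 2.51 and 4.25 FPKM (0.591, 0.392 to 0.898), and Hspb7 at 68.9 and 80.8 FPKM (0.853, 0.816 to 0.893).

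The share of each transcript that also occurs in another gene differed widely between the 10 genes. Words of 50 bases from the GENCODE M21 transcripts were looked up in the transcripts of all other genes. Hsph1 shared none of its words, Dnajb1 shared 0.412% and Hsp90ab1 shared 3.44%. For Hspa1a and Hspa1b the shares were 66.3% and 62.3%, for Hspb1 50.1%, for Hsp90aa1 47.5%, for Hspd1 42.1%, for Hspa8 39.4% and for Hspe1 22.8%. With 100-base words the shares ranged from 0% for Hsph1, Dnajb1 and Hsp90ab1 to 56.5% for Hspa1a. Entries that hold copies had reads of their own. Gm15459, a copy of Hspa8, was listed at 203 FPKM with PRP and 208 FPKM in the control, and Gm12346, a copy of Hsp90aa1, at 39.2 and 37.8 FPKM. Adding the reads of such copies left the ratio at 1.002 for Hspa8, 1.14 for Hsp90aa1 and 1.31 for Hspe1. Whether reads that align to several places were counted is not given in the sources used here. If they were, these sums can hold the same read repeatedly, and intervals of sums are then too narrow. The same holds for the sums given above for Hspa1a with Hspa1b, for Hspb1 and for Hspd1. Exons of Hspa8 also hold the small nucleolar RNA genes Snord14c, Snord14d and Snord14e on the same strand, over 6.09% of its exon length.

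**Figure D3:**
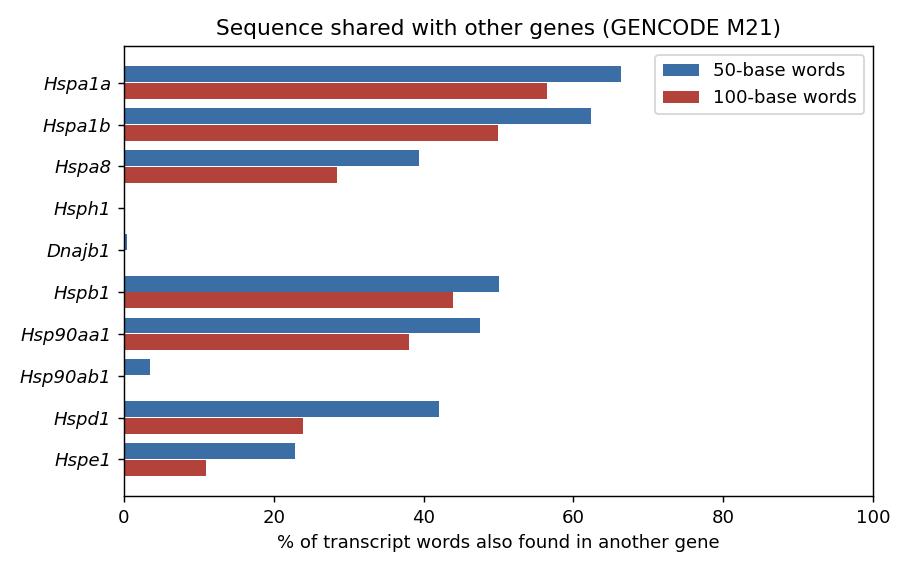
Share of each gene's 50-base and 100-base transcript words that also occur in a transcript of another gene, in percent. Hspa1a and Hspa1b have the longest bars and Hsph1 has none.

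Of the 10 genes, 7 had a RefSeq promoter window, and Hspa8, Hsp90aa1 and Hsp90ab1 had none. A pair of facing units (GAANNTTC or TTCNNGAA, each its own reverse complement) was found in 6 of the 7, all but Dnajb1. It is held by 17.0% of the 27025 genes with a window and by 15.1% of all windows. A run of at least 3 units, which contains such pairs, was found in 3 of the 7, Hspd1, Hspe1 and Hsph1, of which the first and the second share 1 site. Such a run is held by 0.662% of the genes with a window. The elements of Hsph1 and Hspb1, the 2 genes that were lower with PRP, are shown beside those of the higher genes above, with the units in capitals.
Hsph1 (minus strand, chr5:149636280-149636308): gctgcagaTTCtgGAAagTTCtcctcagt
Hsph1 (minus strand, chr5:149636351-149636380): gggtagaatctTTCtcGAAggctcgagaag
Hspb1 (plus strand, chr5:135887791-135887820): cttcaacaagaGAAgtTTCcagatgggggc
Hspb1 (plus strand, chr5:135887811-135887840): agatgggggcaGAAccTTCctggccccgcc
Hsph1 has 2 RefSeq starts, and its run lay 15 to 27 bases after the first and 36 to 48 bases after the second. The further pair of Hsph1 lay from position -54 to -47 relative to the first and from -33 to -26 relative to the second. The M21 gene begins farther upstream, so that 29 of the 29 bases shown around the run and 26 of the 30 around the pair fall within M21 exons of Hsph1. The pairs of Hspb1 lay from -117 to -110 and from -97 to -90. Runs of at least 3 units were thus found in genes that were higher (Hspd1 and Hspe1) and in a gene that was lower (Hsph1) with PRP. A match of letters is a description of the window and does not show that HSF1 was bound.

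**Figure D4:**
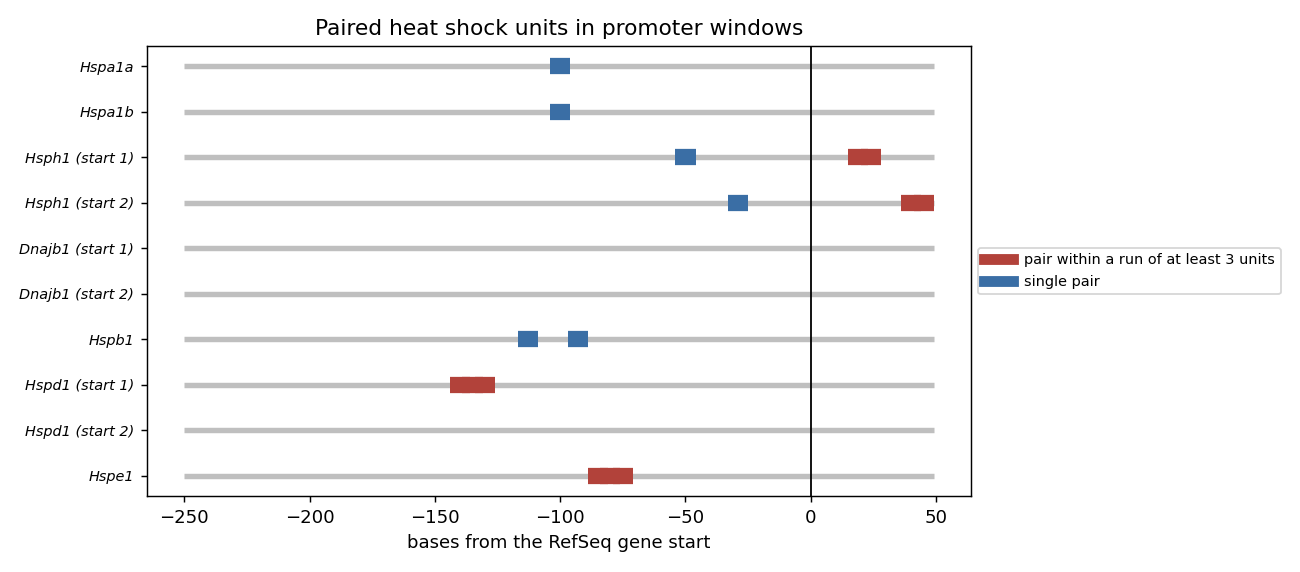
Position of paired heat shock units in the RefSeq promoter windows, in bases from the gene start, for the 7 genes that have a window. Pairs that belong to a run of at least 3 units are drawn in a separate colour from single pairs; Hspd1 (at 1 of its 2 starts), Hspe1 and Hsph1 hold a run, Hspa1a and Hspa1b have a pair at the same place, and the window of Dnajb1 is empty.

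The message of the regulator itself was low. Hsf1 was at 0.916 FPKM with PRP and 0.875 FPKM in the control, from 261 and 212 reads, below the filter, and its ratio of 1.05 (0.801 to 1.36) includes 1. Of the 7 heat shock factors and their regulators listed, 3 were tested, of which 1 was higher and 2 were lower. Hsf2 was at 1.98 and 1.46 FPKM (1.36, 1.15 to 1.61) and Hsf4 at 2.49 and 3.08 FPKM (0.809, 0.601 to 1.10). Of 17 other heat-inducible genes known as HSF1 targets, 14 of which stand in the other lists too, 10 were higher and 7 lower with PRP, with a median of 0.08, and of the 16 with an interval 8 lay above 1 and 6 below 1. None of the 17 reached 1.5-fold. The highest of them were Hspb8 and Cacybp and the lowest Hspa4 and Tcp1.

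The cytosolic chaperonin TRiC and its feeder prefoldin had more higher than lower values. Of 14 tested genes, 9 were higher and 5 lower, with a median of 0.19 on the log2(FPKM + 1) scale. Of the 13 with a counting interval, 8 lay above 1 and 2 below 1. Over all genes 50.9% were higher, and 26.1% of the intervals lay above 1 and 26.1% below. The highest were 2 prefoldin subunits, Pfdn6 at 35.3 FPKM with PRP and 26.2 FPKM in the control (ratio 1.35, 1.21 to 1.505) and Pfdn4 at 38.5 and 29.5 FPKM (1.31, 1.22 to 1.40). The lowest were Tcp1, a subunit of TRiC, at 64.0 and 78.4 FPKM (0.817, 0.789 to 0.845) and Pfdn5 at 41.9 and 50.7 FPKM (0.826, 0.762 to 0.896). Members of both complexes thus stood on either side of 1.

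The chaperones of the endoplasmic reticulum (ER), the counterparts of the 10 genes in the secretory pathway, had more lower than higher values. Of 16 tested, 4 were higher and 12 lower with PRP, the median was -0.22 against 0.11 for the 10 heat shock genes, and the counting interval lay above 1 for 3 and below 1 for 11. Over all genes 50.9% were higher, and 26.1% of the intervals lay above 1 and 26.1% below. A low median was not confined to the ER, as the listed small heat shock proteins had one of -0.21. The FPKM of the ER chaperones summed to 4259 with PRP and 5292 in the control. Hsp90b1, the HSP90 of the ER, was at 903 FPKM with PRP and 1230 FPKM in the control (ratio 0.734, 0.727 to 0.741), whereas both cytosolic HSP90 genes had ratios above 1. Hspa5, the HSP70 of the ER known as BiP, was at 324 and 306 FPKM (1.06, 1.04 to 1.08). Pdia6, a disulfide isomerase, was at 103 and 157 FPKM (0.655, 0.636 to 0.675). The highest values were those of Dnajb9 with 11.4 and 9.16 FPKM (1.24, 1.09 to 1.41) and Sdf2l1 with 11.2 and 9.49 FPKM (1.18, 0.968 to 1.43). With 1 library per group, the difference between the lists could not be tested.

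**Figure D5:**
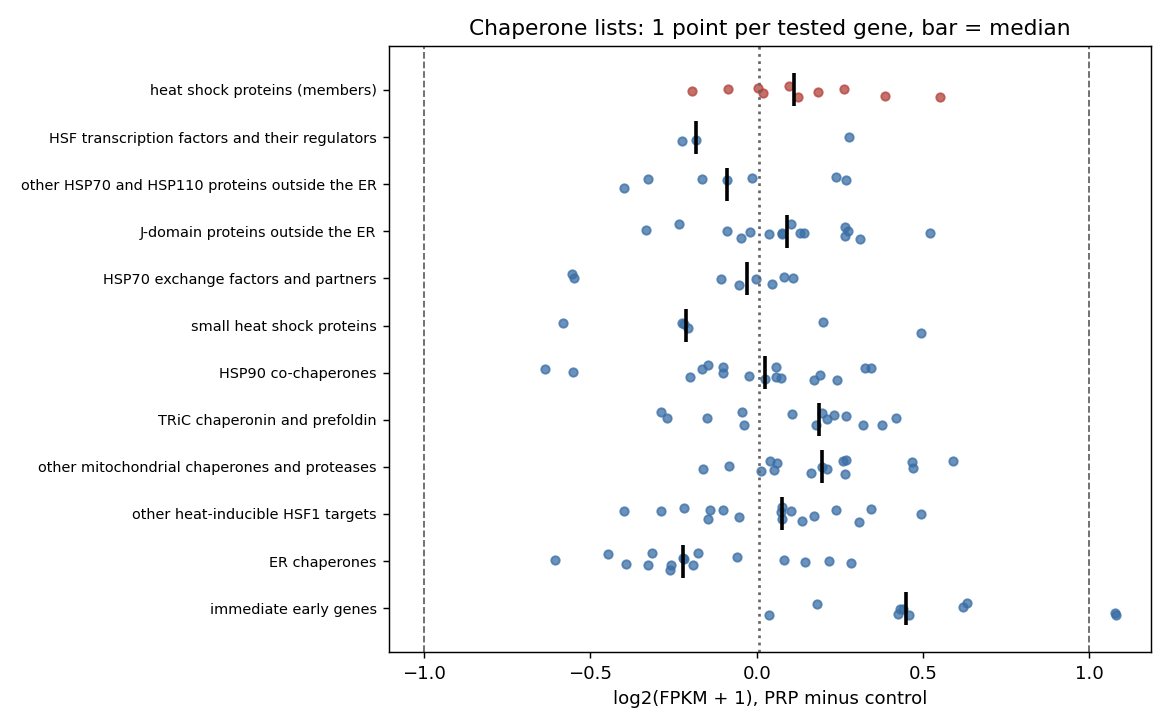
Difference of each tested gene on the log2(FPKM + 1) scale, PRP minus control, for the 10 heat shock genes and each list of related genes, with 1 point per gene and a bar at the median. The dotted line is the median of all tested genes and the dashed lines mark 2-fold. The medians of the mitochondrial chaperones (0.20) and of TRiC and prefoldin (0.19) lie right of the dotted line. That of the immediate early genes (0.45) lies farthest right. Left of it lie the medians of the ER chaperones (-0.22), small heat shock proteins (-0.21) and heat shock factors with regulators (-0.18). Those of other HSP70 and HSP110 genes (-0.09) and of HSP70 exchange factors and partners (-0.03) also lie left.

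Immediate early genes, which cells switch on within minutes of handling, serum or stress, also differed between the libraries. All 10 tested of 14 listed were higher with PRP, with a median of 0.45, and their FPKM summed to 121 with PRP and 82.6 in the control. Of all tested genes, 50.9% were higher and 2.83% were past 2-fold in either direction. Atf3, a transcription factor induced by many stresses, was at 12.0 and 5.14 FPKM (ratio 2.33, 1.97 to 2.77) and Ier3 at 12.3 and 5.31 FPKM (2.32, 1.85 to 2.95), and these were the 2 that passed 2-fold. The lowest were Zfp36 at 1.87 and 1.54 FPKM (1.22, 0.923 to 1.61) and Jund at 22.02 and 21.4 FPKM. Whether the handling of the cultures had a part in the values of the heat shock genes was not tested.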

How the data were processed

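The authors built stranded mRNA libraries, and per the labels trimmed reads with fastp 0.23.4, aligned them to mm10 with STAR 2.5.3a and counted them with featureCounts. The deposited values are FPKM per gene in 1 PRP and 1 control library. The annotation release and the FPKM formula are not given in the sources used here. Gene identifiers matched GENCODE M21 (GRCm38) for 41492 of 44291 genes. The total of assigned reads of each library was fitted from the spacing of its FPKM multiplied by the M21 exon length. With these totals and lengths, the FPKM gave whole reads (within 0.001) for 21322 of 22777 genes above 0 in both libraries (93.6%). Even read numbers prevailed (79.3% and 80.3% of genes with up to 8 reads), so intervals used reads divided by 2. Intervals and totals take no account of PCR duplicates, which cannot be told from separate molecules. No count test was run, as there was 1 library per group.

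The 13401 tested genes had a mean FPKM of 1 or more. Their differences are on the log2(FPKM + 1) scale, PRP minus control, where the pseudocount understates the change of low genes. An interval was given for 12369 of these. The 10 genes and the gene lists were chosen with earlier results of these data known. Named are the 10 genes, Hsf1, Hspa5, Hsp90b1 and, of each list, the 2 highest and 2 lowest tested genes (the highest and the lowest in a list under 6); markers, copies and overlapping entries were named after their values were seen. Promoters are those of RefSeq on GRCm38.p6. Coding sequences of M21 were aligned in place of proteins. Alternatives were other pseudocounts (0.1 and 5), filters (none, or a mean FPKM of 5) and scalings (3), thresholds of 1.5-fold and 4-fold, summed copies and reads as the counting unit. Reads of further copies and the removal of Gm20481 reads or of gene pairs were chosen after seeing the data. Python 3.11.15, NumPy 2.4.6, pandas 2.3.3, SciPy 1.17.1 and matplotlib 3.10.9 were used, and the procedures were tested on simulated data.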

Additional observations from a re-analysis of the deposited data

How the results depend on the processing

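No paired analysis was possible because the 2 libraries are single ones of their groups. None of the 10 heat shock genes passed 2-fold, 1.5-fold or 4-fold under any pseudocount, filter or scaling tried, and of their differences those of Hspa8 and Hspa1b, given above, changed sign with the scaling. The median of the 10 genes stayed between 0.058 and 0.12, with 0.058 when Hspd1 and Hspe1 were left out (chosen after seeing the data). The number of all genes past 2-fold, 379 (268 higher and 111 lower), was less stable. It was 739 with a pseudocount of 0.1 (471 higher, 268 lower), 113 with one of 5 and 210 under the stricter filter of 5 FPKM. With differences centred on the median gene it was 377 (263 higher, 114 lower). It was 596 with both libraries scaled to the same sum (380 higher, 216 lower). Without the mitochondrially encoded and top genes in the sum it was 638 (391 higher, 247 lower). These last 2 scalings, to a sum of 1000000, raised all values while the pseudocount stayed at 1. The pseudocount then weighs less, so their counts do not show scaling between the libraries alone. At 1.5-fold the number was 1436 (824 higher, 612 lower) and at 4-fold 26 (23 higher, 3 lower). The median of all genes stayed between -0.02 and 0.01. Depth limits the genes with few reads, Hspb1, Hspa1a and Dnajb1, whose intervals are the widest of the 10.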
